A study of Homo sapiens with 12 samples.

Results

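The genes described here encode the transcriptional coactivators YAP (YAP1) and TAZ (WWTR1), the DNA-binding factors TEAD1, TEAD2, TEAD3 and TEAD4 that recruit them to DNA, and the Vestigial-like proteins VGLL3 and VGLL4 that compete for the same TEAD surface. They are 8 of the 31585 loci with a value in A375 human melanoma cells, and each was found by its symbol on 1 row of the deposited table. The symbol TAZ in that table belongs to tafazzin, a different gene, so TAZ was read from WWTR1.

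The study asked which genes respond to activated YAP in A375, a line from a human malignant melanoma that is hypotriploid. RNA sequencing gave 12 libraries, 3 in each of 4 groups. All cells were transduced with an MSCV retroviral vector that carries an internal ribosome entry site and a hygromycin resistance gene, and were selected with hygromycin. The Control group carried the empty vector, and the others carried human YAP with serine-to-alanine changes, namely YAP-S127A, YAP-S94A,S127A and YAP-S127A,S381A, which is called YAP-2SA. For YAP-2SA the condition field and the design text also list S94A, whereas the titles and the study's vector list do not, and the titles were followed here. The replicates were separate platings of 1 transduced line per construct, so p-values measure the spread between platings and not between transductions. Whether a line was a pool or a clone was not stated.

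YAP and TAZ cannot bind DNA on their own. The Hippo kinases LATS1 and LATS2 phosphorylate serines of both proteins, which holds them in the cytoplasm and marks them for degradation, and the unphosphorylated proteins reach the nucleus, where a TEAD recruits them. VGLL4 binds TEADs through domains that overlap the YAP site and is known as an antagonist of YAP, and in melanoma YAP and TAZ are known for invasive, dedifferentiated states.

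The 3 codons that set the constructs apart are shown because every comparison turns on them. They were read on the plus strand of GRCh37 from the YAP1 transcript that encodes 488 residues, each with its codon in capitals and 12 bases of coding sequence on either side, and they show the human reference, not the vector.
S94A, chr11:101981847-101981873, exon 1: aagctgcccgacTCCttcttcaagccg
S127A, chr11:101984920-101984946, exon 2: gttcgagctcatTCCtctccagcttct
S381A, chr11:102098213-102098239, exon 7: tctcgagatgagAGTacagacagtgga
Serine 94 lies in the TEAD-binding region, and its change to alanine disrupts TEAD binding. The serines changed in S127A and S381A both follow the LATS recognition pattern HxRxxS, and the one changed in S94A does not. In the transcript that encodes 504 residues the serine of S381A has a higher number, so S381A was read from the 488-residue form.

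The values were log2(FPKM + 1), in which FPKM is fragments per kilobase of transcript scaled to the number of mapped fragments, a level per length that allows comparison between genes. They were tested with limma over the 15055 loci that reached 1 FPKM in at least 3 libraries, and a difference was called at a Benjamini-Hochberg adjusted p under 0.05 over those loci. VGLL3 did not reach that level and was not tested, which left 7 genes. The number of reads behind each value is unknown. The summed FPKM of a library ran from 790865 to 901558, and 20161 to 20656 loci were above 0. Only 2 of the 7 melanocyte markers, MITF and SOX10, reached 1 FPKM in any library, while all 5 melanoma and neural crest markers did. SOX10 was at 188 to 287 FPKM in the Control, YAP-S127A and YAP-S94A,S127A libraries and at 4.53 to 7.25 in YAP-2SA. MITF went the other way, from 8.59 ± 3.16 FPKM in Control (SD, n = 3) to 35 ± 5.54 in YAP-2SA, and the pigment genes PMEL, MLANA, TYR, DCT and TYRP1 were under 1 FPKM throughout. Of the melanoma and neural crest markers, S100A1 went from 101 ± 14.0 FPKM in Control to 2.91 ± 0.623 in YAP-2SA and S100B from 46.9 ± 5.22 to 0.807 ± 0.211, while AXL went from 45.4 ± 4.10 to 187 ± 5.58. The 5 leukocyte and endothelial markers summed to 0.122 to 0.670 FPKM per library. The 6 epithelial markers summed to 181 to 217 FPKM in Control, 406 to 437 in YAP-S127A, 186 to 193 in YAP-S94A,S127A and 1220 to 1390 in YAP-2SA. EPCAM and CDH1 were near 0. Of the keratins, KRT8 went from 10.4 ± 0.919 FPKM in Control to 147 ± 13.8 in YAP-2SA and KRT18 from 179 ± 18.1 to 1160 ± 90.6. By contrast, KRT14 went from 6.87 ± 0.732 to 0.434 ± 0.102 and KRT19 from 1.27 ± 0.133 to 0.881 ± 0.241. The KRT19 row also carries the symbol JUP, so its value is not of KRT19 alone. Whether these marker shifts have a part in the results below was not tested.

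Of the 7 tested genes, 6 differed between YAP-2SA and Control, 3 between YAP-S127A and Control, and none between YAP-S94A,S127A and Control, where 1 had an unadjusted p under 0.05 in limma. All 4 TEAD genes were higher in YAP-2SA, and WWTR1 and VGLL4 were lower. YAP-S127A shared the direction for TEAD3, TEAD4 and WWTR1. Of all loci tested, 42.3% were called for YAP-2SA, 6.31% for YAP-S127A and 0.179% for YAP-S94A,S127A. With a ratio of group means over 2 required as well, 3 of the 7 genes remained for YAP-2SA, against 15.5% of loci. Of these, TEAD4 passed narrowly, at 40.9 FPKM against 20.3 in Control. Against the Control mean of 20.7 without Control replicate 3 it falls short of that ratio, while YAP1 then exceeds it. The 3 comparisons share the Control libraries.

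**Figure D1:**
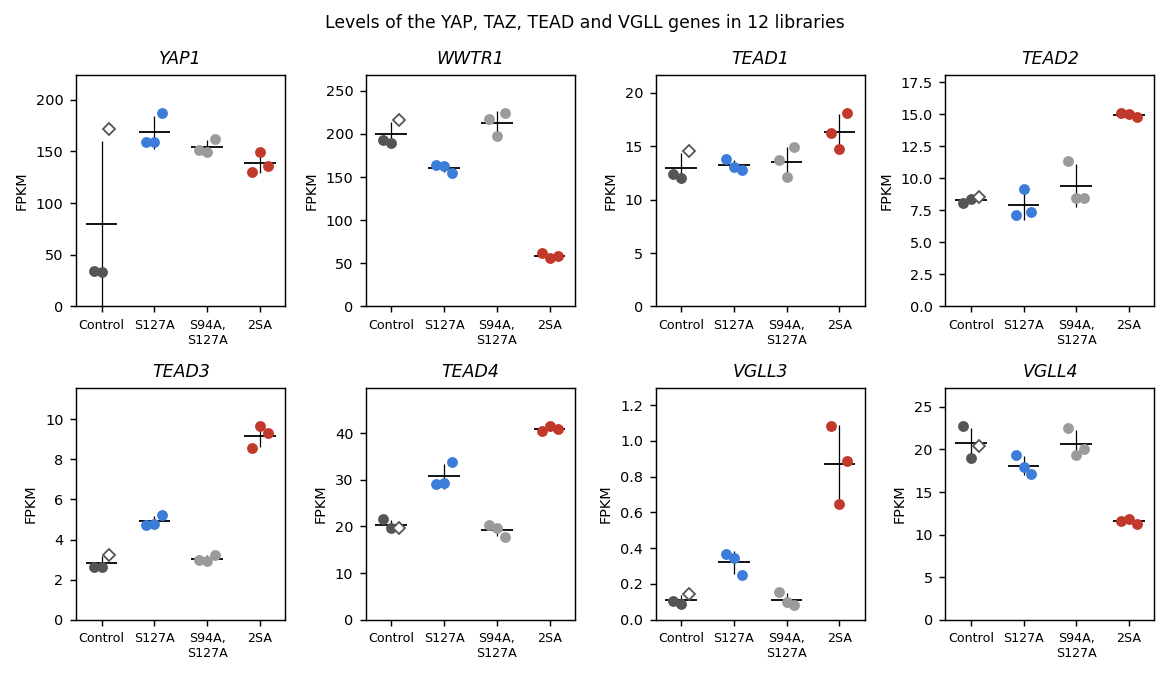
FPKM (y axis, starting at 0, with its own scale for each gene) of the 8 genes in the 12 libraries by group, with points for libraries, a horizontal bar for the mean and a vertical line for the SD over n = 3, cut at 0. The open diamond is Control replicate 3, which lies at 172 FPKM of YAP1 among the YAP libraries and near the other Controls for the other genes.

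YAP1, the gene carried by the vectors, is the check of the labels. It measured 34.1 and 33.0 FPKM in Control replicates 1 and 2 and 172 in Control replicate 3. It measured 159, 159 and 187 FPKM in YAP-S127A, 151, 149 and 162 in YAP-S94A,S127A, and 130, 149 and 136 in YAP-2SA. Control replicate 3 therefore went against its label for this gene and lay inside the YAP-S127A range. The row counts endogenous and vector transcripts together, so these sources cannot be told apart.

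With all 12 libraries, no YAP1 difference against Control was called. The log2 fold changes were 1.23 (95% confidence interval 0.15 to 2.32, adjusted p = 0.0662, limma with Benjamini-Hochberg adjustment) for YAP-2SA, 1.51 (0.43 to 2.60, adjusted p = 0.109) for YAP-S127A and 1.39 (0.30 to 2.48, adjusted p = 0.919) for YAP-S94A,S127A. Without the library labelled Control replicate 3, Control stood at 33.6 ± 0.745 FPKM (SD, n = 2). YAP1 was then 4.12-fold higher in YAP-2SA (adjusted p = 1.26e-07, limma), 5.01-fold higher in YAP-S127A (adjusted p = 1.75e-06) and 4.59-fold higher in YAP-S94A,S127A (adjusted p = 6.22e-06). The library left out is set apart by its YAP1 value, so its removal fixes the outcome for YAP1. These p-values are therefore no support, and YAP1 is also the gene that the vectors carry. In that fit 37.2% of 14982 loci were called for YAP-2SA, 4.48% for YAP-S127A and 0.167% for YAP-S94A,S127A.

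Among the 3 YAP lines themselves, YAP1 was lower in YAP-2SA than in YAP-S127A in every library. That difference was -0.28 on the log2 scale in both fits. It was not called with all libraries (SE 0.49, adjusted p = 0.706, limma) and was called without Control replicate 3 (SE 0.08, adjusted p = 0.0207), since the groups share 1 estimate of the spread. This call too rests on leaving out a library that is set apart by its YAP1 value. YAP-S127A and YAP-S94A,S127A overlapped, with a log2 difference of 0.12 (95% confidence interval -0.05 to 0.30, adjusted p = 0.364, limma, without Control replicate 3).

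Control replicate 3 stood apart from the other Controls at few loci. In FPKM + 1 it was more than 4-fold above both of them at 6 of the 15055 loci and more than 4-fold below both at 51. The same counts were 14 and 55 for replicate 1, and 46 and 9 for replicate 2. Its WWTR1, TEAD1 and TEAD3 values were the highest of the Controls. LOC285074, a locus chosen after its values were seen, measured 5.91 FPKM in this library, 5.83 and 5.47 in the other Controls, and 1.22, 1.22 and 1.13 in YAP-S94A,S127A. The YAP-TEAD readout CTGF measured 12.7 FPKM in Control replicate 3, with 12.2 to 12.7 over the 3 Controls and 52.1 to 66.1 in YAP-2SA. In YAP-S94A,S127A, where YAP1 was also high, CTGF measured 9.94 to 12.8, so CTGF does not set this library apart from that group. CYR61 was higher in it, at 19.7 FPKM against 15.3 and 15.6 in the other Controls. CYR61 measured 13.1 to 17.0 in YAP-S94A,S127A and 36.1 to 41.7 in YAP-S127A. ANKRD1 was lower in Control replicate 3, at 0.335 against 0.638 and 1.26, with 0.545 to 1.39 in YAP-S94A,S127A.

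WWTR1, which encodes TAZ, was the most abundant of the 8 in Control. It measured 193, 189 and 216 FPKM in Control, 164, 163 and 155 in YAP-S127A, 217, 197 and 224 in YAP-S94A,S127A, and 61.7, 56.3 and 58.3 in YAP-2SA. The YAP-2SA libraries lay far below every other library, and the YAP-S127A libraries lay below all Control and YAP-S94A,S127A libraries without overlap. WWTR1 was 3.39-fold lower in YAP-2SA than in Control, a log2 fold change of -1.74 (SE 0.07, adjusted p = 9.47e-09, limma with Benjamini-Hochberg adjustment). Its change of -0.31 in YAP-S127A against Control was called with all libraries (adjusted p = 0.0214, limma) but not without Control replicate 3 (-0.25, adjusted p = 0.0706).

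The comparison between YAP-S127A and its form unable to bind TEAD does not use the Control libraries. WWTR1 was lower in YAP-S127A there by -0.40 on the log2 scale (SE 0.07, adjusted p = 0.00378, limma). Without Control replicate 3 in the shared fit it was called as well (adjusted p = 0.00252). YAP-2SA was lower than YAP-S127A by -1.43 (adjusted p = 9.77e-08). In bulk RNA, fewer cells that express a gene and less RNA of it per cell cannot be told apart.

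TEAD4 was the most abundant of the TEAD genes in every group. It measured 21.6, 19.7 and 19.6 FPKM in Control, 29.0, 29.3 and 33.8 in YAP-S127A, 20.3, 19.6 and 17.7 in YAP-S94A,S127A, and 40.4, 41.4 and 40.8 in YAP-2SA. The levels stepped up from Control to YAP-S127A to YAP-2SA with no overlap between these groups, and YAP-S94A,S127A overlapped Control. TEAD4 was 2.01-fold higher in YAP-2SA than in Control (log2 fold change 0.98, SE 0.07, adjusted p = 1.4e-06, limma) and 1.51-fold higher in YAP-S127A (0.57, adjusted p = 0.000808). YAP-2SA exceeded YAP-S127A by 0.40 on the log2 scale (adjusted p = 0.00152, limma).

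TEAD3 was the least abundant of the TEAD genes and had the largest fold change among them. It measured 2.61, 2.65 and 3.24 FPKM in Control, 4.74, 4.78 and 5.21 in YAP-S127A, 2.99, 2.91 and 3.23 in YAP-S94A,S127A, and 8.55, 9.64 and 9.32 in YAP-2SA. The order of the groups was that of TEAD4, again with no overlap between Control, YAP-S127A and YAP-2SA. TEAD3 was 3.24-fold higher in YAP-2SA than in Control (log2 fold change 1.41, SE 0.08, adjusted p = 2.02e-07, limma) and 1.73-fold higher in YAP-S127A (0.63, adjusted p = 0.000942). YAP-2SA exceeded YAP-S127A by 0.78 (adjusted p = 3.4e-05, limma).

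TEAD2 differed in the YAP-2SA line but not detectably in YAP-S127A. It measured 8.11, 8.40 and 8.53 FPKM in Control, 7.12, 9.20 and 7.41 in YAP-S127A, 11.4, 8.45 and 8.48 in YAP-S94A,S127A, and 15.1, 15.0 and 14.8 in YAP-2SA. The YAP-2SA libraries lay above all 9 others. TEAD2 was 1.80-fold higher in YAP-2SA than in Control (log2 fold change 0.77, SE 0.11, adjusted p = 0.000264, limma), and it exceeded YAP-S127A by 0.85 (adjusted p = 0.00021). In YAP-S127A against Control the log2 difference was -0.08 (95% confidence interval -0.33 to 0.17, adjusted p = 0.781, limma).

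TEAD1 had the smallest of the changes called in YAP-2SA against Control. It measured 12.4, 12 and 14.6 FPKM in Control, 13.8, 13.1 and 12.8 in YAP-S127A, 13.7, 12.1 and 14.9 in YAP-S94A,S127A, and 16.2, 14.7 and 18.1 in YAP-2SA. The lowest YAP-2SA library lay just above the highest Control, and below 1 YAP-S94A,S127A library. TEAD1 was 1.25-fold higher in YAP-2SA than in Control (log2 fold change 0.31, SE 0.10, adjusted p = 0.0284, limma). That call was lost without Control replicate 1 (adjusted p = 0.0841), Control replicate 2 (0.0949), YAP-2SA replicate 1 (0.0637) or YAP-2SA replicate 3 (0.111), in limma with Benjamini-Hochberg adjustment. In YAP-S127A the log2 difference from Control was 0.03 (95% confidence interval -0.19 to 0.25).

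The 4 TEAD genes were also read as a sum and as shares of it. The 4 genes summed to 44.5 ± 1.57 FPKM in Control (SD, n = 3), 56.7 ± 2.28 in YAP-S127A, 45.3 ± 2.78 in YAP-S94A,S127A and 81.4 ± 1.44 in YAP-2SA. TEAD4 made up 45.7% ± 2.92 of the sum in Control, 54.0% ± 2.65 in YAP-S127A, 42.5% ± 2.89 in YAP-S94A,S127A and 50.3% ± 1.11 in YAP-2SA, so its share did not follow the stepwise order of its level. The TEAD1 share was 29.2% ± 2.26 in Control, 23.4% ± 1.81 in YAP-S127A and 20.1% ± 1.80 in YAP-2SA, and that of TEAD3 was 6.36% ± 0.627, 8.65% ± 0.160 and 11.3% ± 0.603. The TEAD2 share was 18.8% ± 0.764 in Control, 13.9% ± 2.06 in YAP-S127A and 18.4% ± 0.473 in YAP-2SA. These sums and shares were not tested. They describe transcripts, not protein.

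The coactivator pair had its lowest sum in YAP-2SA. YAP1 and WWTR1 together summed to 227, 222 and 388 FPKM in Control replicates 1 to 3, 329 ± 11.3 in YAP-S127A (SD, n = 3), 367 ± 20.0 in YAP-S94A,S127A and 197 ± 7.37 in YAP-2SA. WWTR1 made up 85.0%, 85.1% and 55.7% of that sum in the 3 Controls, 48.9% ± 3.18 in YAP-S127A, 58.0% ± 1.01 in YAP-S94A,S127A and 29.9% ± 2.41 in YAP-2SA. YAP1 was the more abundant of the pair in YAP-2SA, WWTR1 in Control and YAP-S94A,S127A, and in YAP-S127A their means of 168 ± 16.5 and 161 ± 5.11 FPKM did not differ beyond their spread.

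**Figure D2:**
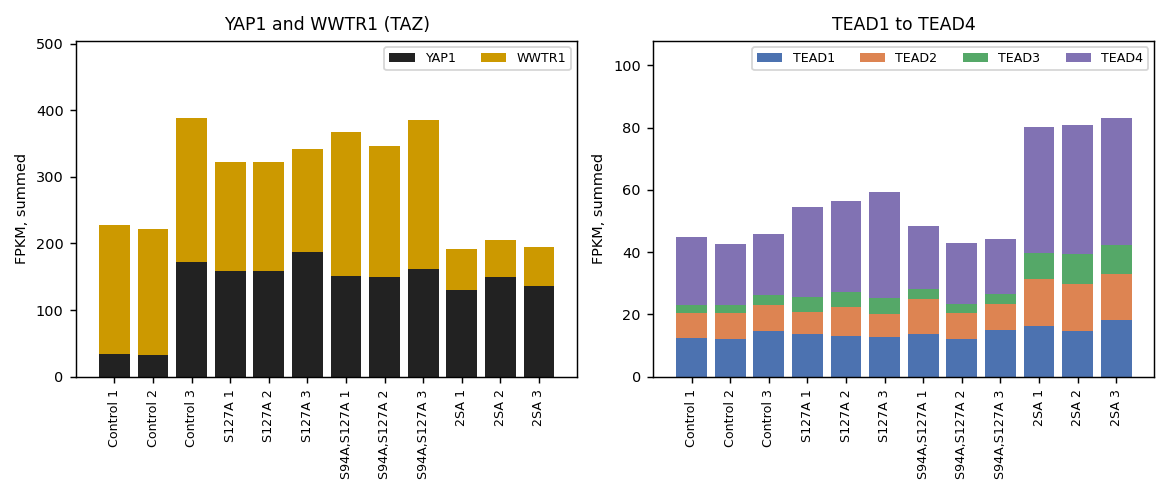
Stacked FPKM (y axis, starting at 0) of YAP1 and WWTR1 on the left and of TEAD1 to TEAD4 on the right, 1 bar for each of the 12 libraries. The YAP-2SA bars are the shortest on the left, at 191 to 205 FPKM, and the tallest on the right, at 80.3 to 83.0 FPKM, and the bar of Control replicate 3 reaches 388 FPKM on the left.

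VGLL4, the antagonist, fell in YAP-2SA. It measured 22.7, 19.0 and 20.4 FPKM in Control, 19.3, 17.9 and 17.1 in YAP-S127A, 22.5, 19.3 and 20.1 in YAP-S94A,S127A, and 11.6, 11.8 and 11.3 in YAP-2SA. The YAP-2SA libraries lay below all 9 others, which overlapped among themselves. VGLL4 was 1.79-fold lower in YAP-2SA than in Control (log2 fold change -0.79, SE 0.08, adjusted p = 1.38e-05, limma), and lower than in YAP-S127A by -0.60 (adjusted p = 0.000168). In YAP-S127A the log2 difference from Control was -0.18 (95% confidence interval -0.36 to -0.01, adjusted p = 0.226, limma). The level of VGLL4 per unit of summed TEAD was 0.466 ± 0.0364 in Control and 0.142 ± 0.00551 in YAP-2SA (SD, n = 3, not tested).

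VGLL3, a Vestigial-like coactivator of TEADs, was scarce in every library. It measured 0.107, 0.0875 and 0.142 FPKM in Control, 0.368, 0.347 and 0.247 in YAP-S127A, 0.156, 0.0981 and 0.0807 in YAP-S94A,S127A, and 1.08, 0.646 and 0.886 in YAP-2SA. Only 1 library reached 1 FPKM, and Control, YAP-S127A and YAP-2SA did not overlap. The means of log2(FPKM + 1) differed by 0.74 between YAP-2SA and Control and by 0.25 between YAP-S127A and Control, on a scale that understates changes at such low levels. With no filter on low values, limma gave adjusted p = 0.00012 for the first and 0.19 for the second.

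VGLL2, another gene of that family and not one of the 8, was listed at 0, 0.134 and 0.0989 FPKM in Control, 0.939, 0.763 and 0.568 in YAP-S127A, 0.0958, 0.191 and 0.114 in YAP-S94A,S127A, and 15.5, 8.32 and 11 in YAP-2SA. In YAP-2SA it was thus more abundant than VGLL3 by mean, and close to VGLL4 at 11.6 ± 0.282 FPKM. VGLL2 passed the filter only through the YAP-2SA libraries, so a gene with this pattern had to differ there, and its fitted value carries no weight. VGLL1 and FAM181A were listed at 0 in all libraries. FAM181B was at 0.186 ± 0.124 FPKM in Control and 1.0 ± 0.291 in YAP-2SA (SD, n = 3), and it was below the filter and not tested.

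The form of YAP that cannot bind TEAD left the 6 tested genes other than YAP1 near their Control levels. Their log2 differences from Control ran from -0.08 for TEAD4 (95% confidence interval -0.24 to 0.08) to 0.15 for TEAD2 (-0.10 to 0.40), each with an adjusted p of 1 in limma. The interval was -0.06 to 0.24 for WWTR1, -0.16 to 0.28 for TEAD1, -0.10 to 0.26 for TEAD3 and -0.18 to 0.17 for VGLL4. With all 12 libraries, none of these bounds reaches the estimated change of the same gene in YAP-2SA. TEAD1 comes closest, with an upper bound of 0.28 against a change of 0.31. The estimates in YAP-2SA have errors of their own, which this leaves out, so it is no test of a difference. For TEAD1 the direct comparison of YAP-2SA with YAP-S94A,S127A, given below, was not called, and the libraries overlapped. The bounds are set against the changes only for the fit that includes Control replicate 3, which had the highest TEAD1 value of the Controls. Without that library the Control mean of TEAD1 was 12.2 FPKM in place of 13.0. The means were 13.6 in YAP-S94A,S127A and 16.3 in YAP-2SA, so the narrow margin for TEAD1 also depends on that library.

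Set against YAP-S94A,S127A directly, 3 of the 7 genes differed in YAP-S127A, against 10.7% of all loci, and 5 in YAP-2SA, against 43.5%. The 3 were WWTR1, described above, TEAD3 at 0.55 (SE 0.08, adjusted p = 0.00183, limma) and TEAD4 at 0.65 (SE 0.07, adjusted p = 0.000253). In YAP-2SA the log2 differences were -1.84 for WWTR1, 0.62 for TEAD2, 1.33 for TEAD3, 1.05 for TEAD4 and -0.78 for VGLL4. TEAD1 at 0.25 (95% confidence interval 0.03 to 0.47) was not called (adjusted p = 0.0642, limma).

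The constructs with and without S381A, both able to bind TEAD, differed at 5 of the 7 genes, against 32.8% of all loci. These were WWTR1, TEAD2, TEAD3, TEAD4 and VGLL4, all further from Control in YAP-2SA. TEAD1 differed by 0.28 (95% confidence interval 0.06 to 0.50, adjusted p = 0.0523, limma) and was called without Control replicate 3 (adjusted p = 0.0387).

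**Figure D3:**
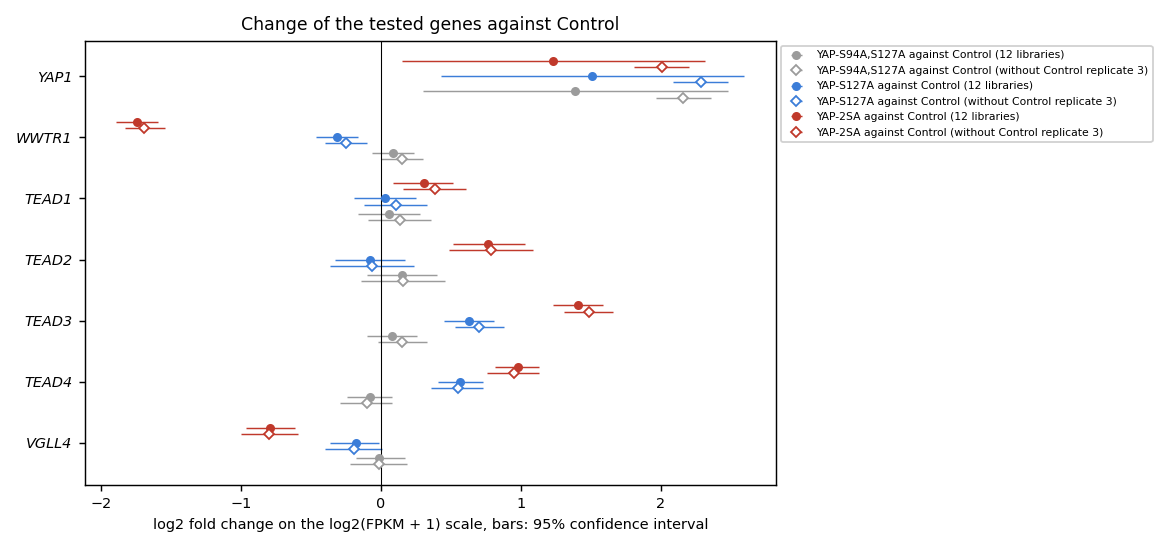
Log2 fold change against Control on the log2(FPKM + 1) scale (x axis) with 95% confidence intervals for the 7 tested genes, by construct, with filled circles for all 12 libraries and open diamonds without Control replicate 3. YAP1 moves to 2.01, 2.29 and 2.16 with narrow intervals once that library is left out. The other genes shift less, though WWTR1 in YAP-S127A is then no longer called.

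The order of the levels in Control ran from WWTR1 at 199 ± 14.4 FPKM (SD, n = 3) through YAP1, VGLL4 at 20.7 ± 1.87, TEAD4 at 20.3 ± 1.15, TEAD1 at 13.0 ± 1.39, TEAD2 at 8.35 ± 0.218 and TEAD3 at 2.83 ± 0.352 to VGLL3 at 0.112 ± 0.0274. VGLL4 and TEAD4 did not differ beyond their spread. In YAP-2SA the order became YAP1 at 138 ± 9.96, WWTR1 at 58.8 ± 2.74, TEAD4 at 40.9 ± 0.499, TEAD1 at 16.3 ± 1.69, TEAD2 at 15.0 ± 0.137, VGLL4, TEAD3 at 9.17 ± 0.560 and VGLL3 at 0.872 ± 0.220. TEAD1 and TEAD2 were then within their spread of each other, and VGLL4 had dropped below 3 of the 4 TEAD genes.

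Across the 12 libraries the genes fell into opposite sets. Pearson's r of log2(FPKM + 1) was 0.97 between WWTR1 and VGLL4, 0.96 between TEAD3 and TEAD4, and -0.95 between WWTR1 and TEAD3 (n = 12 libraries in 4 groups, given as a description). YAP1 correlated between -0.24 and 0.41 with the others. The libraries share 4 groups, so these values mainly restate the order of the groups.

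The named loci most like each gene over those 12 libraries also mainly follow the groups. WWTR1 was closest to CD109 (r = 0.998, n = 12), PMEPA1 and TSPAN13 (both 0.997). TEAD3 was closest to MSLN and LAMA5 with MIR4758 (both 0.995) and CCDC80 (0.994), and TEAD4 to HDGF (0.992), SDC1 and AJAP1 (both 0.991). VGLL4 was closest to RNF125 (0.990), EGR1 (0.989) and ZNF697 (0.986). The best matches were weaker for TEAD2 (LOC728392 0.952, RPL22L1 0.950, LGALS8 0.946), TEAD1 (ADAMTS1 0.896, LRRC8C 0.882, NPIP 0.879) and YAP1 (CEP95 0.868, BAHCC1 0.819, C21orf63 0.818).

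Promoter windows, from 250 bases before to 50 after a start site, were held by RefSeq (GRCh38.p14) for 6 of the 8 genes in 12 windows. They were searched on both strands for GGAATG, the core that TEADs bind, and for TGANTCA, the site of the AP-1 factors, which do not overlap. GGAATG was in 1 of the 12, that of YAP1 at 162 bases before the start, and in 14.0% of 34943 windows of all genes. TGANTCA was in 0 of the 12 and in 7.7% of all windows. The windows of TEAD3 and WWTR1, the largest called rise and fall among the tested genes in YAP-2SA with all 12 libraries, hold neither and are shown 5′ to 3′ on the minus strand of their genes.
TEAD3, chr6:35497030-35497329: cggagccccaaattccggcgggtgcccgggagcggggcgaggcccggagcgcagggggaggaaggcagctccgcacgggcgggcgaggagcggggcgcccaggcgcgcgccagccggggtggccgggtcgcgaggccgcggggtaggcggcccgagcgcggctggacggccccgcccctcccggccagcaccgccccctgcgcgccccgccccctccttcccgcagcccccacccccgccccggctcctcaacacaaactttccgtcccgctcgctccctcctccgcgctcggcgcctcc
WWTR1, chr3:149657976-149658275: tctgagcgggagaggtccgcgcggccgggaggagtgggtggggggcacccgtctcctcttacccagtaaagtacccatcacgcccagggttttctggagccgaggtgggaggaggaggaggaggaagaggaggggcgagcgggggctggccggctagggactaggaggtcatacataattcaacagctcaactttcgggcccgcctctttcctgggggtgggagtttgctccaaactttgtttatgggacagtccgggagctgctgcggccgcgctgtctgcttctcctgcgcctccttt
WWTR1, chr3:149703224-149703523: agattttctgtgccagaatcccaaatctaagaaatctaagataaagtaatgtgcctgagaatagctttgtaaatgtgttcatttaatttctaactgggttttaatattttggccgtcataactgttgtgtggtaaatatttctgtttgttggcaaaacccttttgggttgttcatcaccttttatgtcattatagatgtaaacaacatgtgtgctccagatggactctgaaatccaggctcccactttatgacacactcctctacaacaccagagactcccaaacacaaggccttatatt
The absence of these letters says nothing of sites elsewhere at these genes.

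In GRCh37 the genes lie at chr11:101981178-102104155 (YAP1, plus strand), chr3:149235022-149454501 (WWTR1, minus), chr11:12695968-12966284 (TEAD1, plus), chr19:49843852-49865714 (TEAD2, minus), chr6:35441374-35464856 (TEAD3, minus), chr12:3068496-3149842 (TEAD4, plus), chr3:86925538-87040299 (VGLL3, minus) and chr3:11597543-11812824 (VGLL4, minus). WWTR1, VGLL3 and VGLL4 share chromosome 3 but are far apart, and YAP1 and TEAD1 share chromosome 11.

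The rest of the pathway was read from lists of genes with known roles. All 8 readout genes of YAP-TEAD rose in YAP-2SA against Control, with a median log2 fold change of 2.20, and all 8 rose in YAP-S127A, with a median of 1.02. Of all loci, 42.3% and 6.31% were called there, over both directions. The paper places CTGF, CYR61, AXL, CRIM1 and NUAK2 in its signature, whose genes had to rise in these YAP-2SA cells. Their rise in YAP-2SA was therefore known beforehand and is no independent support. One of the 8, ANKRD1, passed the filter only through those groups, so its call had to follow, and the other 7 passed the filter without them. In YAP-S94A,S127A none was called by limma, with 2 at an unadjusted p under 0.05 and a median of -0.11. F3, which encodes tissue factor, went from 1.25 ± 0.0474 FPKM in Control (SD, n = 3) to 4.04 ± 0.573 in YAP-S127A and 16.6 ± 0.529 in YAP-2SA. CRIM1, a transmembrane protein, went from 25.5 ± 1.55 to 48.3 ± 2.56 and 128 ± 5.08, and CTGF, a matricellular protein, from 12.5 ± 0.312 to 24.8 ± 1.61 and 57.9 ± 7.29. AXL, a receptor tyrosine kinase, was at 93.1 ± 3.24 FPKM in YAP-S127A, between the Control and YAP-2SA levels given above. These 4 stepped up from Control to YAP-S127A to YAP-2SA without overlap, as TEAD3 and TEAD4 did. The 4 were named for their small adjusted p in YAP-2SA against Control, and the share of all loci with such steps was not computed.

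Among the 14 Hippo kinases and adaptors that restrain YAP, 6 were higher and 4 lower in YAP-2SA (median 0.03), and 4 were higher and none lower in YAP-S127A. The shares called of all loci were 42.3% and 6.31%, over both directions, so the YAP-2SA count of 10 stands beside a high background. WWC1, an upstream scaffold, went from 1.01 ± 0.235 FPKM in Control to 3.92 ± 0.331 in YAP-S127A and 9.50 ± 1.42 in YAP-2SA (SD, n = 3). LATS2, a kinase that phosphorylates YAP, went from 5.79 ± 0.433 to 8.81 ± 0.773 and 12.7 ± 1.03. LATS1, the other such kinase, went from 5.67 ± 0.522 to 4.80 ± 0.311 and 4.59 ± 0.527. It was among the 4 called lower in YAP-2SA (log2 fold change -0.26, adjusted p = 0.0396, limma). SAV1, the scaffold of the upstream kinases, and WWC2, a relative of WWC1, rose by 0.83 and 0.90 on the log2 scale in YAP-2SA (adjusted p = 5e-07 and 4.16e-06, limma). Without Control replicate 3, the YAP-2SA counts became 5 and 3.

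Among 11 genes of YAP retention and degradation, 4 were higher and 1 lower in YAP-2SA (median 0.08), which is close to the 42.3% of all loci and is no result about these genes. SFN, a phosphoserine-binding adaptor of the family that holds YAP in the cytoplasm, went from 0.692 ± 0.429 FPKM in Control to 4.45 ± 0.750 in YAP-S127A and 23.0 ± 1.28 in YAP-2SA, but it passed the filter only through these latter groups, so its call had to follow. Its relative YWHAH rose by 0.85 (adjusted p = 1.63e-05, limma). Of 12 tested other DNA-binding partners and coactivators, 4 were higher and 3 lower (median -0.07), again beside a background of 42.3%. Among them was RUNX3, a Runt-domain factor that YAP can bind, at 17.0 ± 1.35 FPKM in Control and 6.30 ± 1.17 in YAP-2SA (log2 fold change -1.31, adjusted p = 7.8e-06, limma). In YAP-S94A,S127A none of the genes of these 3 lists was called by limma, with 2, 0 and 0 at an unadjusted p under 0.05.

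**Figure D4:**
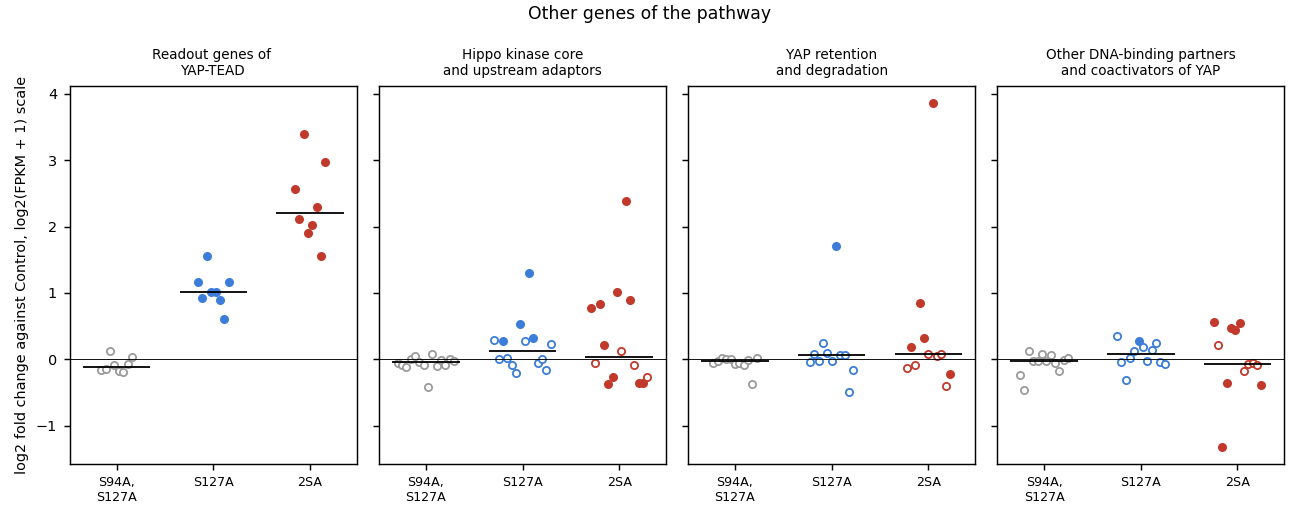
Log2 fold change against Control (y axis) of each tested gene in 4 lists, by construct, with filled points for genes called at an adjusted p under 0.05, open points for the others and a bar for the median. The readout genes rise in YAP-S127A and further in YAP-2SA, with medians of 1.02 and 2.20, and the other lists have medians near 0 with single genes far from it in YAP-2SA, such as WWC1 at 2.38, SFN at 3.86 and RUNX3 at -1.31.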

How the data were processed

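A375 cells of 4 groups were sequenced in 12 libraries. Per the submitters' processing notes the tools were bcl2fastq 2.15.0, Bowtie2 2.0.0, TopHat2 2.0.4 and Cufflinks 2.0.2 on hg19. The authors deposited 1 table of log2(FPKM + 1) for assembled loci, and no read counts were used. Of 31588 rows, 3 identical copies were removed. Values were analysed as deposited, with the pseudocount of 1 they contain, in limma 3.58.1 (R 4.3.3) with an intensity trend and 1 mean per group over all 12 libraries, for 15055 loci at 1 FPKM or more in at least 3 libraries, with two-sided Benjamini-Hochberg adjusted p under 0.05 as a call. An exact permutation test of 3 against 3 cannot go below p = 0.1 and was not used. The fit was tested on simulated data. FPKM were back-transformed for means and ratios. The 8 genes and the lists were chosen with earlier results of these data known. From each list at most 4 genes were named, those of smallest adjusted p in YAP-2SA against Control, and for each tested gene the 3 most correlated named loci. Marker genes, BTRC, LATS1 and the CYR61 and ANKRD1 values were named outside this rule, after their values were seen. Alternatives covered the pseudocount, filter, scaling, libraries fitted, replicate block, trend and each library left out.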

Additional observations from a re-analysis of the deposited data

How the results depend on the processing

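With a ratio of group means over 2 required as well, fewer genes were called, since fewer changes reach that ratio. Against Control the count fell from 6 to 3 for YAP-2SA and from 3 to 0 for YAP-S127A. Of the 15055 loci, 2327 and 372 were called there. For YAP-2SA against YAP-S127A the count fell from 5 to 1, beside 1672 loci. Against YAP-S94A,S127A it fell from 3 to 0 for YAP-S127A, beside 525 loci, and from 5 to 3 for YAP-2SA, beside 2395. Leaving out each library in turn gave 0 to 1 called genes for YAP-S94A,S127A against Control, the 1 being YAP1 without Control replicate 3. Small uncalled log2 differences changed sign when single libraries were left out: TEAD1 ran from -0.02 to 0.11 for YAP-S127A against Control, from -0.01 to 0.14 for YAP-S94A,S127A against Control and from -0.10 to 0.04 between the latter constructs, and VGLL4 ran from -0.07 to 0.06 for YAP-S94A,S127A against Control. The TEAD1 call in YAP-2SA against Control was also lost with no filter (adjusted p = 0.0591, limma), with quantile normalization (0.074) and with only the 6 libraries compared (0.0585). The WWTR1 call in YAP-S127A against Control was lost with quantile normalization (adjusted p = 0.0819, limma), with only the 6 libraries compared (0.109) and without YAP-S127A replicate 1 (0.0506) or 3 (0.0711). The causes were not tested. Each of the 8 genes was on 1 row, so there were no rows to sum for them. Over all tested loci, replicate numbers gave little pairing of the libraries. Of 18 same-numbered pairs, 2 had a correlation of deviations over 0.1 (range -0.149 to 0.163), and 5 of 12 libraries were closest to their own number. Single genes could still follow the number. BTRC, chosen after its values were seen, was lowest in replicate 1 of all 4 groups. It measured 7.48 FPKM there in Control, 4.78 in YAP-S127A, 4.78 in YAP-S94A,S127A and 4.95 in YAP-2SA. With the replicate number as a replicate block, TEAD1 was called in YAP-2SA against YAP-S127A (adjusted p = 0.017, limma) and against YAP-S94A,S127A (0.0209). That made 6 genes in each, beside 5287 and 6976 of the 15055 loci, and no other call of the 7 genes changed. The depth of the libraries is unknown, which limits what can be said of VGLL3 and other genes under 1 FPKM.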
